A study of Mus musculus with 4 samples.

Results

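Cells released from the colon of mice labelled with an epithelial deletion of Bmi1 were set against those of mice labelled with an epithelial deletion of Mel18, gene by gene. The 2 arrays compared are those whose genotype labels read Bmi1ΔIEC and Mel18ΔIEC, called Bmi1_KO and Mel18_KO here, out of 4 arrays in all. The other arrays are of wild type (WT) and of the mice with both deletions, Bmi1ΔIEC Mel18ΔIEC (DKO). Their levels are printed beside some genes but enter no difference. All animals were C57BL/6, sex-matched and aged 6 to 8 weeks, and all had received azoxymethane at 10 mg/kg, a colon carcinogen, and from 5 days later 3.5% dextran sulfate sodium in the drinking water for 5 days, which injures the colonic lining. Tissue was taken on day 12, so every array, WT included, is of injured colon. Cells were shaken off the opened colon in EDTA and were not sorted, per the labels' protocols. The ΔIEC notation stands for deletion in intestinal epithelial cells. The Cre driver, the deleted exons and the number of mice behind an array are not given in the labels. Each genotype had 1 array, so no difference below has a replicate check, no test was made, and no p-value is given. Of 19946 genes with a named probe set, the 12008 that reached a log2 intensity of 6 or more on the brighter of the 2 arrays were compared. A positive difference is a higher log2 intensity on Bmi1_KO, and a difference of 1 is 2-fold.

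BMI1 and MEL18 (the product of Pcgf2) are closely related Polycomb group ring finger proteins. Each pairs with a RING1 or RNF2 ubiquitin ligase to form a canonical Polycomb repressive complex 1, which places ubiquitin on histone H2A and keeps developmental genes and the Cdkn2a locus silent. Bmi1 is widely known for maintaining stem cells, in the intestine among other tissues. The comparison asks in what the loss of either relative leaves a different transcriptome.

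The deleted genes did not mark their own arrays. Bmi1 (probe set 10469514) read 7.43 on Bmi1_KO, 6.999 on Mel18_KO, 7.64 on DKO and 7.25 on WT. The array labelled Bmi1_KO was thus 0.43 above the Mel18_KO array for the gene it should lack. Pcgf2 (probe set 10390458) read 6.72 on Bmi1_KO, 6.84 on Mel18_KO, 6.81 on DKO and 6.96 on WT, a difference of -0.11. Where the probes lie relative to a deleted part is not known here, so these values check neither label, and every direction below is between arrays labelled as stated. Of the 20 genes on each side of Pcgf2 in the RefSeq gene order, 28 in all were analysed and 0 of them lay 1.5-fold apart. Beside Bmi1, 22 were analysed and 3 were higher: Vim (1.94), Pip4k2a (0.73) and Apbb1ip (0.77). Vim, which encodes the mesenchymal and leukocyte filament vimentin, stands 18 places away, while the adjacent gene Commd3 differed by 0.33.

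The arrays were alike for most genes, with a Pearson correlation of 0.976 across the 12008 genes, which are not independent replicates and share the arrays and their normalization. The median difference was -0.04, and the central 95% of genes lay between -0.50 and 0.71. The 2 sides were unequal: 188 genes were at least 2-fold higher on Bmi1_KO (1.57%) and 28 at least 2-fold lower (0.233%). At 3-fold 89 were higher (0.741%) and 4 lower (0.0333%). At 1.5-fold, the threshold used for gene lists, 380 genes were higher (3.16%) and 153 lower (1.27%). Counting every gene on either side of 0, 42.8% were higher and 57.2% lower. Dim genes spread more: between mean log2 levels of 6 and 8 there were 107 higher genes and 18 lower among 5133, and above 10 there were 10 higher and 0 lower among 1799. Background was judged from 1194 olfactory and vomeronasal receptor genes, whose 95th percentile was 5.54 on Bmi1_KO and 5.41 on Mel18_KO. Of the 188 higher genes 54 read under the floor of 6 on Mel18_KO, and 7 of the 28 lower genes did so on Bmi1_KO. Those genes passed the floor only through the array where they are high. Below the 95th percentile of the receptor genes were 28 of the 188 higher genes on Mel18_KO and 2 of the 28 lower genes on Bmi1_KO. For such genes the fold is given as a bound against the percentile of the dimmer array.

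**Figure D1:**
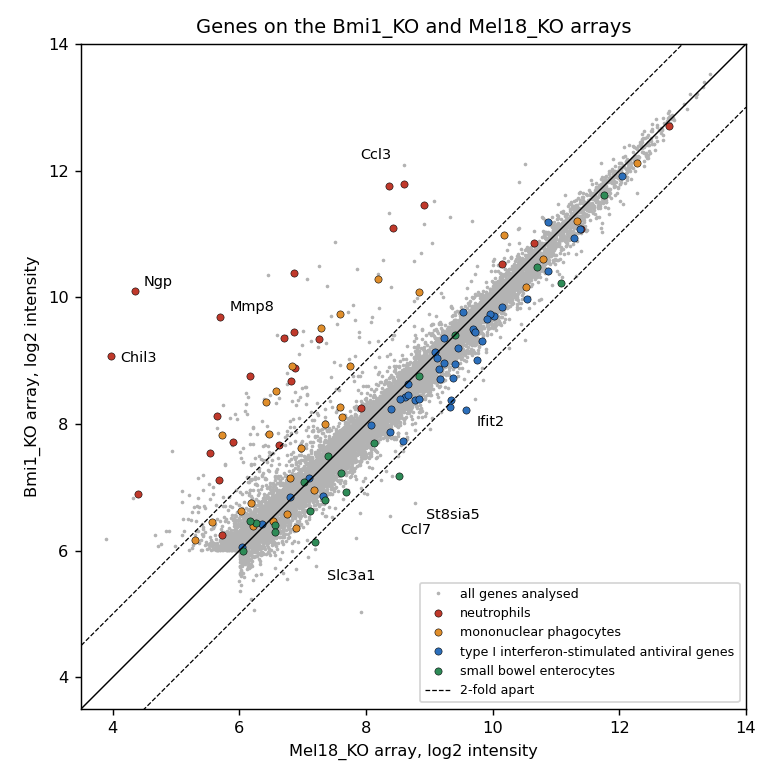
Each point is 1 of the 12008 genes, at its log2 intensity on the Mel18_KO array (x axis) and on the Bmi1_KO array (y axis); the dashed lines mark 2-fold. The coloured points above the upper line are neutrophil and mononuclear phagocyte genes, while the antiviral genes lie along or under the diagonal.

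In the genes higher on Bmi1_KO, the Mel18_KO array was mostly the low one of all 4. It was the lowest in 182 of the 188 genes (96.8%), against 41.0% of the 5136 genes with any higher value on Bmi1_KO and 17.6% of all genes analysed. Bmi1_KO was the highest of the 4 in 13 of the 188, and DKO lay above Bmi1_KO in 171. WT fell between: it was at least 1.5-fold above Mel18_KO in 133 of the 188, and Bmi1_KO was at least 1.5-fold above WT in 136. For the 28 lower genes the Bmi1_KO array was the lowest of the 4 in 21 (75%), against 31.8% of the 6867 genes with any lower value on Bmi1_KO and 18.2% of all genes, and Mel18_KO was the highest in 9. The genes were chosen by these 2 arrays, so a raised share follows in part from the choice.

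**Figure D2:**
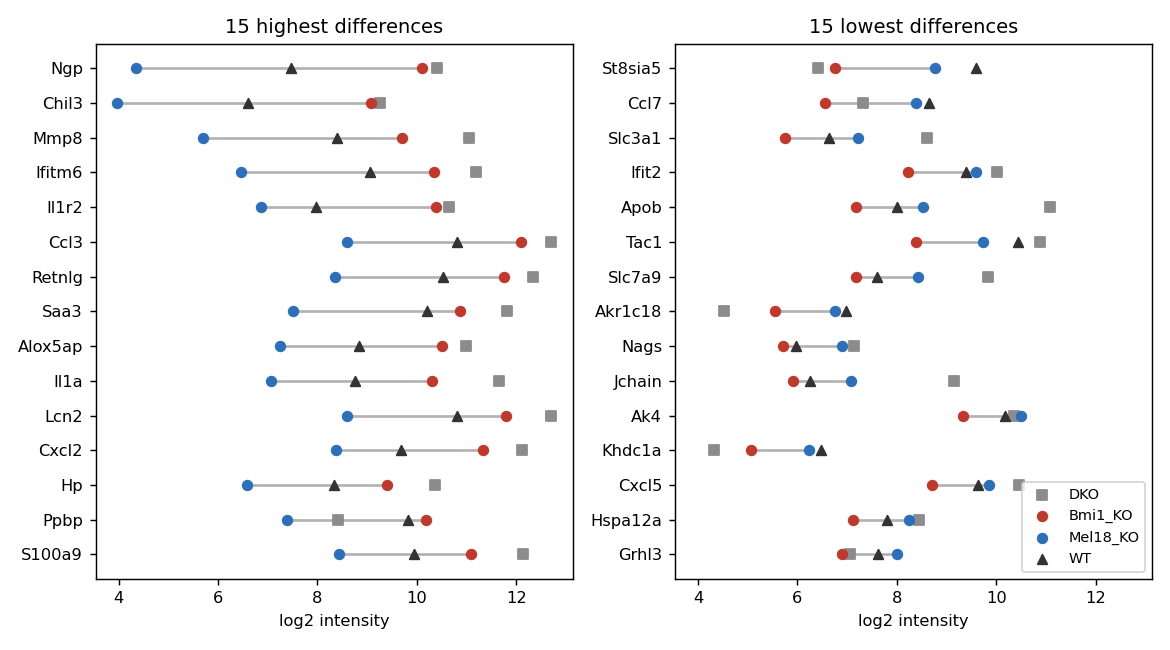
The log2 intensities of the 15 highest (left) and 15 lowest (right) differences on all 4 arrays, 1 point per array, with a grey line joining the 2 arrays compared. In the left panel Mel18_KO is the lowest point in every gene, and in the right panel Bmi1_KO is the lowest in 12 of 15.

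Neutrophil transcripts led the higher genes. Ngp, a granule protein of maturing neutrophils, read 10.09 on Bmi1_KO, 4.35 on Mel18_KO, 10.41 on DKO and 7.48 on WT. It lay at background on Mel18_KO alone and was at least 25.8-fold higher on Bmi1_KO. Chil3, a chitinase-like secreted protein of myeloid cells, read 9.07, 3.97, 9.26 and 6.60 on Bmi1_KO, Mel18_KO, DKO and WT, at least 12.7-fold apart. Mmp8, the neutrophil collagenase, read 9.70 on Bmi1_KO, 5.69 on Mel18_KO, 11.04 on DKO and 8.38 on WT, a 16.0-fold difference. Il1r2, the decoy receptor for interleukin 1, read 10.38 on Bmi1_KO, 6.86 on Mel18_KO, 10.64 on DKO and 7.96 on WT, and was 11.5-fold higher. In each of these genes the order was the same, with DKO at the top, then Bmi1_KO, then WT, then Mel18_KO. S100a9 and S100a8, which form the antimicrobial protein calprotectin, were 6.33-fold and 5.81-fold higher. Their levels were 11.09 and 11.45 on Bmi1_KO, 8.43 and 8.91 on Mel18_KO, 12.12 and 12.23 on DKO and 9.93 and 10.13 on WT.

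Across the list of neutrophil genes 29 were measured and 26 analysed, of which 20 were at least 1.5-fold higher on Bmi1_KO, 0 were lower, and all 20 also passed 2-fold. Their median difference was 2.28, against -0.04 over all genes, and 2.01 over the 29 measured. On Mel18_KO 9 of the 26 read under 6 and passed through the Bmi1_KO array alone. The other higher members included Retnlg (3.40), Clec4e (2.65) and Trem1 (2.59), myeloid receptors or secreted factors, and Asprv1 (2.59). Stfa2, of a family of near-identical stefin genes that probes may not separate, was at least 2.81-fold higher. The 6 analysed members that did not reach 1.5-fold were Camp (0.52), Slfn4 (0.37), Ltf (0.34), Cd177 (0.20), Ly6g (-0.08) and Lrg1 (-0.32). Ly6g, known as the neutrophil surface antigen, read between 12.70 and 12.88 on all 4 arrays, so that probe set did not follow the other members. Elane and Mpo, proteases and oxidase of immature granules, were under 6 on both arrays (5.83 and 5.56, and 5.62 and 5.78). Summed over the 29 measured genes, intensity was 32904 on Bmi1_KO, 15656 on Mel18_KO, 54190 on DKO and 23320 on WT. The 2 arrays compared thus differed 2.10-fold. Ly6g, the brightest member on both arrays and near level, is in this sum and draws the ratio down. In an unsorted isolate, fewer cells of a type and less RNA per cell cannot be told apart.

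Genes of monocytes and macrophages were higher in part. Of 29 analysed, 17 were at least 1.5-fold higher and 0 lower, 10 passed 2-fold, and the median difference was 0.66. The highest were the inhibitory receptor Lilrb4a (2.22), which has a near-identical neighbour gene, the signalling adaptors Tyrobp (2.14) and Fcer1g (2.11), the coagulation subunit F13a1 (2.10), the antibody receptor Fcgr3 (2.09) and the integrin subunit Itgam (1.94). Tyrobp read 9.74 on Bmi1_KO, 7.59 on Mel18_KO, 10.81 on DKO and 8.67 on WT. Tyrobp, Fcer1g, Fcgr3 and Itgam are expressed by neutrophils too. Among members typical of resident macrophages, Csf1r gave 0.66 (8.01 and 7.35 on Bmi1_KO and Mel18_KO), near the list median and past 1.5-fold. The others did not reach 1.5-fold: C1qc gave 0.35, C1qa -0.21, Cx3cr1 -0.17 and Mrc1 -0.53. Adgre1 and Cd163 were under 6 on both arrays. The summed intensity of the 34 measured genes was 1.28-fold higher on Bmi1_KO. Together the 2 myeloid lists, with 26 and 29 analysed members, held 30 of the 188 genes at least 2-fold higher. Of all 12008 genes 1.57% were that much higher. The share of all genes that stand on some list was not counted. Of the 188 genes, 70 were on some list and 118 were on none. Among those on no list, and chosen after their values were seen, were Spi1 (1.77), the myeloid transcription factor PU.1, which read 8.41 on Bmi1_KO, 6.63 on Mel18_KO, 9.86 on DKO and 7.67 on WT, the leukocyte integrin Itgb2 (1.41), the itaconate enzyme Acod1 (2.32), Plek (2.45) and the matrix glycoprotein Thbs1 (2.45). The pan-leukocyte phosphatase Ptprc read 7.94, 7.23, 9.96 and 7.61 on Bmi1_KO, Mel18_KO, DKO and WT, a difference of 0.72. The PU.1-type motif, GAGG followed directly by AAGT on either strand and also chosen after the values were seen, occurred in 17 of the 145 genes at least 2-fold higher that have a promoter window (11.7%), and in 3.69% of all 27025 genes with one. The response element of type I interferon, occurred in 15 of the same 145 (10.3%), and in 3.99% of all 27025 genes with a window. The promoter of Mmp8 is printed as an example from the highest genes, with its PU.1-type match, which begins 221 bases before the start, in capitals. Windows here run from 250 bases before to 50 after the RefSeq start, in GRCm38.p6, 5′ to 3′ on the gene's strand.
Mmp8, chr9:7558179-7558478, plus strand: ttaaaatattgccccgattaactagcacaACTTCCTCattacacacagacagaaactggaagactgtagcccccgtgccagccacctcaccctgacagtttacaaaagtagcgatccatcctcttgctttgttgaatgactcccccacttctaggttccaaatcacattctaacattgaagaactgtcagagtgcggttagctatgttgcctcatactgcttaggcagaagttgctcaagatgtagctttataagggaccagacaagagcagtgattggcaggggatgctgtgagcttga
A match is a description of the sequence only.

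Of 22 measured tuft cell genes 10 were analysed, and 5 of these were at least 1.5-fold higher and 0 lower. The median was 0.47, and 0.18 over the 22 measured, and it ran from 0.18 to 3.25 over the settings tried. The higher genes were Alox5ap (3.25), Alox5 (1.04), Fyb (1.00), Ptprc (0.72) and Gfi1b (0.61). Of these, Fyb (5.95) and Gfi1b (5.94) read under 6 on Mel18_KO and passed through Bmi1_KO alone. Leukocytes share several of the higher genes, and the part of either cell type was not tested.

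**Figure D3:**
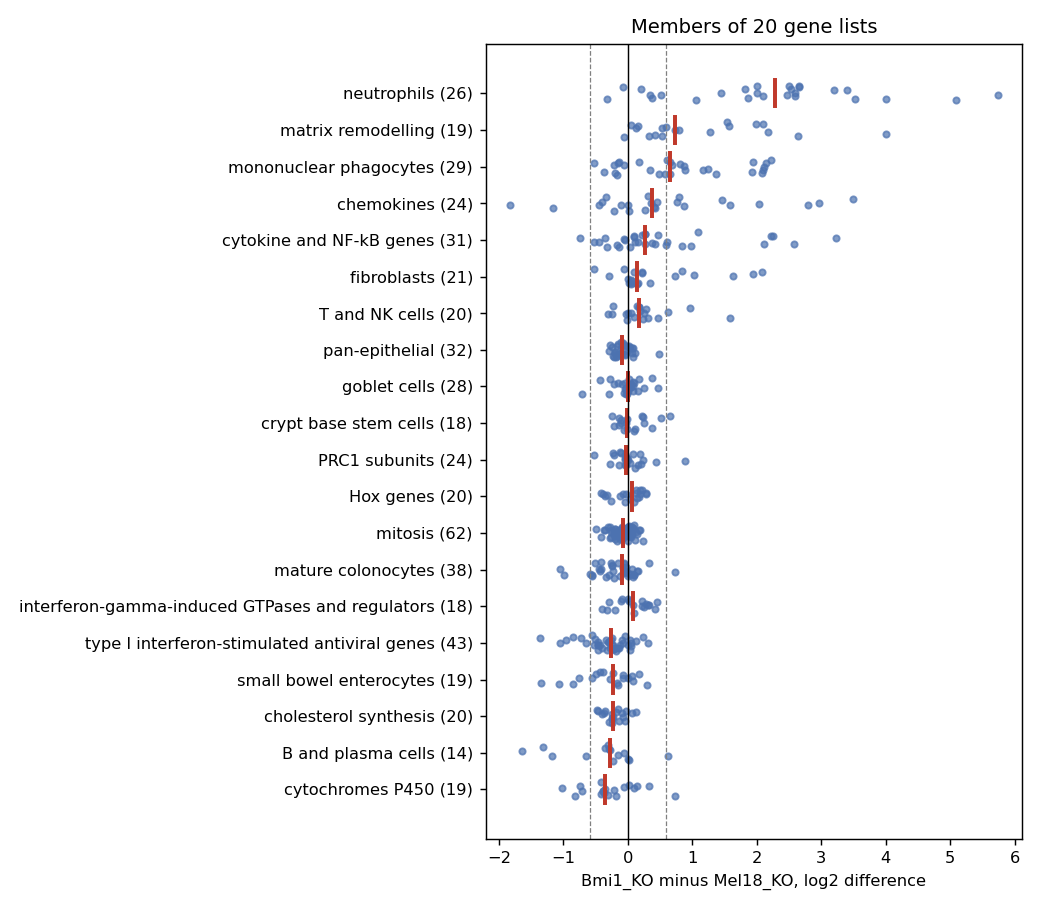
Log2 differences of the analysed members of 20 of the 61 gene lists; 1 point is a gene, red bars are list medians, dashed lines mark 1.5-fold, and the number of genes stands in brackets. The neutrophil list has a median of 2.28 and mononuclear phagocytes 0.66, while mitosis, Hox and pan-epithelial genes lie within 0.50 of 0.

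Chemokine genes differed in both directions. Ccl3, a chemoattractant of myeloid cells, read 12.09 on Bmi1_KO, 8.60 on Mel18_KO, 12.70 on DKO and 10.81 on WT, 11.3-fold apart. Cxcl2, a ligand of the neutrophil receptor CXCR2, read 11.33, 8.37, 12.10 and 9.69 on Bmi1_KO, Mel18_KO, DKO and WT, 7.79-fold apart. Ppbp, a platelet chemokine, read 10.18 on Bmi1_KO, 7.38 on Mel18_KO, 8.41 on DKO and 9.83 on WT, and so was high on WT as well. Of 24 chemokine genes 9 were higher, among them Cxcl3 (2.03), Ccl5 (1.58) and Ccl4 (1.46), and 2 were lower. The lower ones were Ccl7, which attracts monocytes, with 6.54 on Bmi1_KO, 8.37 on Mel18_KO, 7.31 on DKO and 8.65 on WT, and Cxcl5, an epithelial CXCR2 ligand, with 8.70, 9.85, 10.46 and 9.64. For Cxcl5 the Bmi1_KO array was the low one of the 4. The interferon-induced chemokines Cxcl9 (0.02) and Cxcl10 (0.41) did not pass 1.5-fold. Promoters of Cxcl2 and Cxcl3 are printed because both of these CXCR2 ligand genes were higher on Bmi1_KO and each carries an NF-kB-type match (capitals).
Cxcl2, chr5:90903649-90903948, plus strand: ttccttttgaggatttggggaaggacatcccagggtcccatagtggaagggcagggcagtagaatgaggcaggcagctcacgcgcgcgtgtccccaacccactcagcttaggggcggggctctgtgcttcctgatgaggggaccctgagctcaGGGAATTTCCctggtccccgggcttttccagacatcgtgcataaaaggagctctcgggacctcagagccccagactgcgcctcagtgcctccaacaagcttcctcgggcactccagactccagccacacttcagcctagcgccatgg
Cxcl3, chr5:90785851-90786150, plus strand: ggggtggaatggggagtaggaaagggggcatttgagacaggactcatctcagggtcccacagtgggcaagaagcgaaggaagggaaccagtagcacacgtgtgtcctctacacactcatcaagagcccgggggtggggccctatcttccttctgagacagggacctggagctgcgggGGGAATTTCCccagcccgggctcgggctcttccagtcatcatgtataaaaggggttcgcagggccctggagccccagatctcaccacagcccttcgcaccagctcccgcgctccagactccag
The motif, GGGA, any base, then TTTCC, was read on both strands, was chosen after the values were seen, and occurred in 3 of the 17 analysed chemokine genes with a window, and in 0.466% of all 27025 genes with a window. Among the genes at least 1.5-fold higher it occurred in 2 of 7 chemokine genes with a window, in 0 of 8 on the cytokine and NF-kB list and in 0 of 17 on the neutrophil list. In Cxcl2 the match begins 97 bases before the start and in Cxcl3 73 bases before it.

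Cytokine genes followed the myeloid ones at the top of their list and not below it. Il1a, an alarmin cytokine, read 10.30 on Bmi1_KO, 7.07 on Mel18_KO, 11.64 on DKO and 8.76 on WT. Il1b read 11.16, 8.91, 12.28 and 10.42 on Bmi1_KO, Mel18_KO, DKO and WT, a 4.74-fold difference, and the prostaglandin enzyme Ptgs2 10.44, 7.86, 11.61 and 9.73. With Il1f9 (2.21) and Osm (2.12) these made up part of 10 higher genes of 31, against 1 lower, at a median of 0.26. Tnf differed by 0.09 (8.71 and 8.61), and Nos2, the inducible nitric oxide synthase, was lower at 10.19 on Bmi1_KO, 10.93 on Mel18_KO, 12.26 on DKO and 10.63 on WT. Matrix proteases were higher in 11 of 19 genes with 0 lower (median 0.73, and 0.56 to 1.99 over the settings tried): besides Mmp8 these included Mmp13 (2.18), Mmp9 (2.09), Mmp10 (1.99) and Mmp3, at least 4.50-fold higher. Of these 19 genes 7 stand on other lists too, and 5 read under 6 on Mel18_KO. The summed neutrophil intensity, 2.10-fold higher with the near-level Ly6g included, moved in the same direction as these groups. The median log2 difference of the neutrophil list was 2.28. The part of neutrophils in these groups was not tested.

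Antimicrobial genes of the injured epithelium divided between arrays. Saa3 read 10.87 on Bmi1_KO, 7.50 on Mel18_KO, 11.81 on DKO and 10.20 on WT, and Lcn2, the siderophore-binding lipocalin that neutrophils and colonocytes both make, read 11.79, 8.59, 12.70 and 10.80. Both were low on Mel18_KO alone. The related acute-phase gene Saa1, an epithelial product and close in sequence to Saa2, ran the other way with 10.33 on Bmi1_KO, 11.32 on Mel18_KO, 11.96 on DKO and 11.23 on WT. Of 30 genes on this list 3 were higher and 3 lower, at a median of -0.05. The bactericidal lectin Reg3b read 7.77 on Bmi1_KO, 8.33 on Mel18_KO, 13.18 on DKO and 6.73 on WT, below 1.5-fold between the arrays compared (-0.55), and Reg3g differed by 0.12 (7.64 and 7.52). The hydrogen peroxide-producing oxidase Duox2 (-0.44) and its maturation factor Duoxa2 (-0.48) also stayed under 1.5-fold.

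Type I interferon-stimulated antiviral genes leaned lower on Bmi1_KO. Type I interferon induces proteins that block viral RNA and budding, many of them through the interferon-stimulated response element in their promoters. Of 46 measured genes 43 were analysed: 35 had a lower value on Bmi1_KO and 8 a higher one, while 57.2% of all genes were lower. At 1.5-fold 6 were lower and 0 higher, and the median was -0.26 against -0.04 over all genes. The Bmi1_KO array was the lowest of all 4 in 34 of the 43, against 18.2% of all genes. Ifit2, which binds viral RNA, read 8.22 on Bmi1_KO, 9.58 on Mel18_KO, 10.00 on DKO and 9.39 on WT, 2.57-fold lower on Bmi1_KO. Oas2 and Oas3 make the second messenger that activates RNase L. Oas2 read 8.27 on Bmi1_KO, 9.33 on Mel18_KO, 9.04 on DKO and 9.29 on WT, and Oas3 read 7.73, 8.58, 8.90 and 8.77. Bst2, tetherin, read 8.38 on Bmi1_KO, 9.35 on Mel18_KO, 8.89 on DKO and 9.51 on WT. In each of these genes Bmi1_KO stood below the other 3 arrays. Ifit1 (-0.73) and the helicase Helz2 (-0.64) were the other lower members. Irf7 (-0.52), Ifit3 (-0.47) and Rsad2 (-0.40) leaned the same way under 1.5-fold, whereas Stat2 (0.04) and Ifitm3 (0.32) did not. Members of the Oas and Ifit families share sequence, so probe sets may read more than 1 of them.

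The promoters of 3 lower members that carry the response element are shown with that of Stat2, which also carries it but differed by 0.04. Capitals mark GAAA, any 2 bases, then GAAA, or its reverse complement, and overlapping matches run together. The windows are as above.
Ifit1, chr19:34640639-34640938, plus strand: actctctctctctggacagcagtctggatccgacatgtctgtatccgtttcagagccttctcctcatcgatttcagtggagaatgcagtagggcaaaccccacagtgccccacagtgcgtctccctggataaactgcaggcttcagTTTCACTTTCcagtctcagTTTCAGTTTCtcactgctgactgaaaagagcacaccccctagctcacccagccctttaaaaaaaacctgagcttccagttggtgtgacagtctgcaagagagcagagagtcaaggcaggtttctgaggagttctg
Oas3, chr5:120777610-120777909, minus strand: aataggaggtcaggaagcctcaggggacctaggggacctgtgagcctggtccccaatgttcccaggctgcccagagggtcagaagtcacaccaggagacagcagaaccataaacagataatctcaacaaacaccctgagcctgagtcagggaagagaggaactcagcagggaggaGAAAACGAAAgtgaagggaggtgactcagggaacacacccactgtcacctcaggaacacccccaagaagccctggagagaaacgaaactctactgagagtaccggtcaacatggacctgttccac
Bst2, chr8:71537423-71537722, minus strand: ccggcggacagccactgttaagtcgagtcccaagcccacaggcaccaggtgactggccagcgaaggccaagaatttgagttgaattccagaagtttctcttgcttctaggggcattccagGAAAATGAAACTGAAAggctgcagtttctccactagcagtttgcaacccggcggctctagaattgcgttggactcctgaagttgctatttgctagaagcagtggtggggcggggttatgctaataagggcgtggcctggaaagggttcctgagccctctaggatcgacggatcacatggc
Stat2, chr10:128270248-128270547, plus strand: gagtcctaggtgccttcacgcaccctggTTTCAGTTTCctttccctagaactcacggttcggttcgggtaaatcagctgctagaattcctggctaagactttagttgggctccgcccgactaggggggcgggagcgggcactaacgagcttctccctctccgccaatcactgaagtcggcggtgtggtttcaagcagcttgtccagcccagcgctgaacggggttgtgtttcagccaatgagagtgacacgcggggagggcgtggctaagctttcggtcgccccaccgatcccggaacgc
This motif was found in 13 of the 32 analysed members with a window (40.6%), in 3 of the 5 lower members with one, and in 3.99% of all 27025 genes with a window. Ifit1 holds 2 matches, beginning 104 and 85 bases before the start. In Bst2 the matches begin 130 and 124 bases before it and overlap, in Oas3 the match begins 75 bases before it, and in Stat2 it begins 222 bases before it. The windows of Ifit2 and Helz2 hold no match.

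The interferon-gamma branch did not lean lower. Of 18 GTPases and regulators induced by interferon gamma 11 were higher and 7 lower, none of them 1.5-fold apart, at a median of 0.08, with a range from -0.40 (Batf2) to 0.45 (Gbp9). MHC class I genes had a median of 0.01 over 16 genes and class II genes -0.19 over 7, with 0 at 1.5-fold in either. The difference between the type I and gamma lists was not tested.

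**Figure D4:**
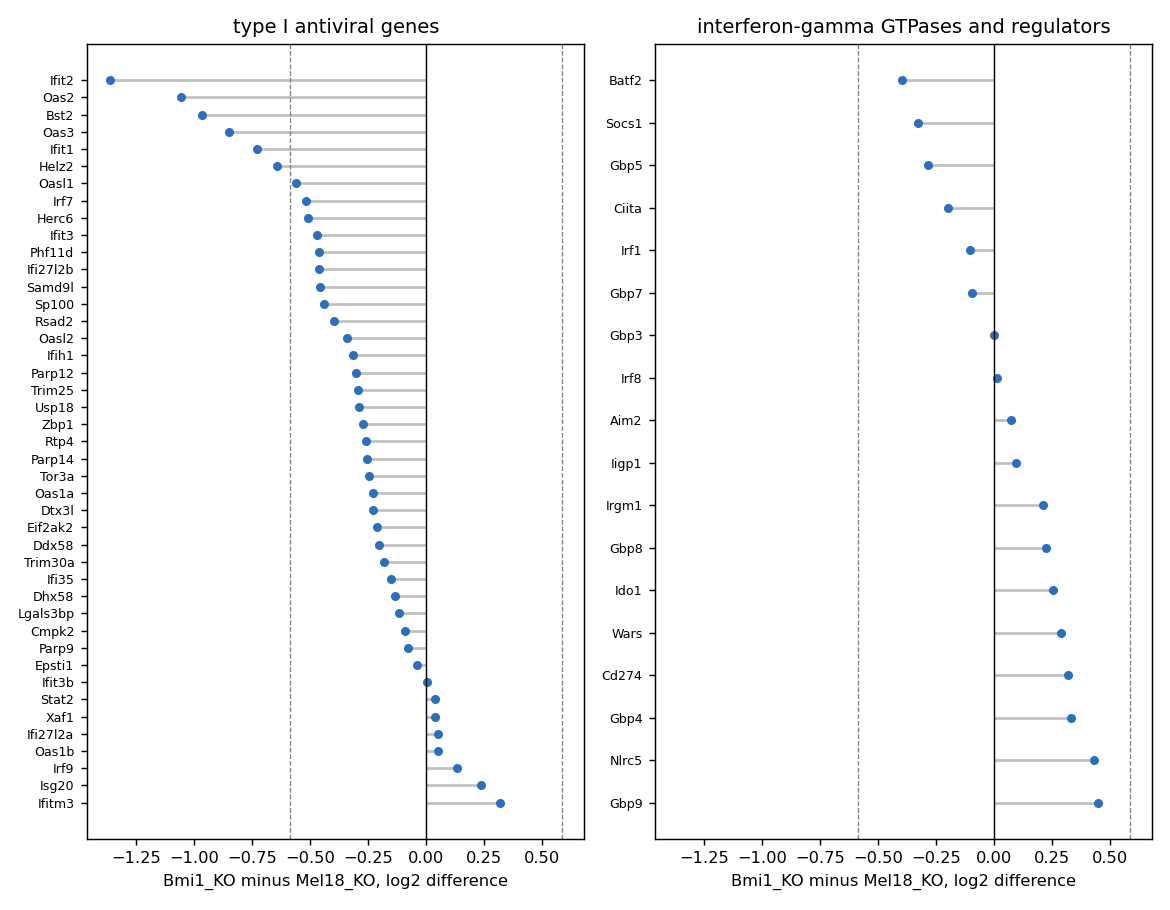
Log2 difference of each analysed gene of the type I antiviral list (left, 43 genes) and the interferon-gamma list (right, 18 genes), sorted; dashed lines mark 1.5-fold. In the left panel 35 points lie below 0 and 6 pass the line, and in the right panel 7 lie below 0 and 0 pass.

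The 15 lowest genes otherwise came from varied groups. St8sia5, a sialyltransferase of gangliosides, read 6.75 on Bmi1_KO, 8.77 on Mel18_KO, 6.41 on DKO and 9.58 on WT, 4.05-fold lower, and was low on both arrays labelled with loss of Bmi1. Akr1c18, a steroid dehydrogenase, followed the same order with 5.55 on Bmi1_KO, 6.75 on Mel18_KO, 4.52 on DKO and 6.97 on WT, and so did Khdc1a (5.06, 6.23, 4.33 and 6.47), at least 1.62-fold lower. Slc3a1 and Slc7a9, the subunits of the cystine and dibasic amino acid transporter of the brush border, were lower together. Slc3a1 read 5.76 on Bmi1_KO, 7.21 on Mel18_KO, 8.61 on DKO and 6.62 on WT, and Slc7a9 read 7.17, 8.42, 9.84 and 7.59. Their order over the 4 arrays was the same, DKO at the top and Bmi1_KO at the bottom. Tac1, the substance P precursor of enterochromaffin cells and nerves, read 8.39 on Bmi1_KO, 9.72 on Mel18_KO, 10.87 on DKO and 10.43 on WT, and the prohormone-processing Cpe (-0.89) was lower with it, whereas Chga (-0.31) stayed under 1.5-fold. The remaining genes were the mitochondrial enzymes Nags (-1.19) and Ak4 (-1.18), the chaperone relative Hspa12a (-1.12) and the epithelial transcription factor Grhl3 (-1.11).

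Absorptive enterocyte genes leaned lower on Bmi1_KO than on Mel18_KO. The apolipoprotein Apob, which packages dietary fat, read 7.18 on Bmi1_KO, 8.52 on Mel18_KO, 11.08 on DKO and 8.00 on WT. Of 19 small bowel genes 4 were 1.5-fold lower and 0 higher (median -0.22): Apob, the alkaline phosphatase Alpi (-1.06), the peptide transporter Slc15a1 (-0.85) and the bile acid transporter Slc10a2 (-0.76). Alpi read 6.14 on Bmi1_KO, 7.20 on Mel18_KO, 9.51 on DKO and 6.01 on WT, and Slc10a2 read 6.93, 7.69, 9.82 and 6.76. On Bmi1_KO these genes thus stood slightly above WT, whereas Apob and Slc15a1 stood below it. Bmi1_KO was the lowest of the 4 arrays in 6 of the 19 genes. Apoa1, on the same list, differed by -0.16. Cytochromes P450 had 4 lower and 1 higher gene of 19, at a median of -0.35. Cyp2d9 (-1.02), Cyp2d10 (-0.83) and Cyp2d12 (-0.71) were among the lower ones and are near-identical copies that probes may not separate, and Cyp2c55 was higher (0.72). Over the 34 measured P450 genes the median was -0.13. Cholesterol synthesis genes showed small differences on 1 side: 18 of 20 were lower on Bmi1_KO, while 57.2% of all genes were. None passed 1.5-fold, the median was -0.23, and Hsd17b7 (-0.48) and Sqle (-0.46) were the furthest. Their median level was 10.19 on Bmi1_KO, 10.43 on Mel18_KO, 9.48 on DKO and 10.14 on WT. Bmi1_KO was the lowest of the 4 arrays in 2 of the 20. This lean was not particular to cholesterol genes. Lower on Bmi1_KO were also 18 of 22 fatty acid synthesis genes and 15 of 18 bile acid and xenobiotic genes. So were 26 of 32 unfolded protein and stress response genes and 11 of 12 Polycomb repressive complex 2 subunits. Replication-dependent histone genes leaned the other way, with 15 of 19 higher. Mature colonocyte genes had 3 lower and 1 higher of 38, led by Tmigd1 (7.26 on Bmi1_KO, 8.31 on Mel18_KO, 7.04 on DKO and 7.38 on WT), where Mel18_KO was the high one.

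Common epithelial, secretory and stem cell genes were close on the arrays. The 32 pan-epithelial genes ranged from -0.30 to 0.49 with 0 at 1.5-fold. Epcam read 12.05 on Bmi1_KO and 11.99 on Mel18_KO, so both isolates carry the marker of the labelled cell type at a high level. Muc2, the goblet cell mucin, differed by 0.05 (12.88 and 12.84), and 1 of 28 goblet cell genes was lower, Ang4 (-0.71). The stem cell receptor Lgr5 read 7.98 and 7.73 (0.25), and Ascl2, a Wnt-driven regulator of the same cells, was the 1 higher gene of 18 (0.65). Proliferation was level: 0 of 62 mitosis genes and 0 of 45 DNA replication genes were 1.5-fold apart, and Mki67 differed by -0.07 (10.99 and 11.06).

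Polycomb genes and classic Polycomb targets differed little. Of 24 analysed subunits of Polycomb repressive complex 1, 1 was higher and 0 lower. The higher one, Pcgf1, a further ring finger relative that works with the corepressor BCOR, read 7.69 on Bmi1_KO, 6.80 on Mel18_KO, 6.82 on DKO and 7.39 on WT, while Bcor gave -0.53. The ubiquitin ligases Rnf2 (-0.12) and Ring1 (0.08) and the methyltransferase Ezh2 (-0.10) were level. Of 20 Hox genes and 17 developmental transcription factors analysed 0 passed 1.5-fold, with medians of 0.06 and 0.05. However, 37 of the 54 measured transcription factors stayed under 6 on both arrays. Of 37 measured Hox genes only those 20 reached 6 on either array. Within the Hox list, Hoxd10 (-0.39), Hoxd11 (-0.32), Hoxd12 (-0.42) and Hoxd13 (-0.36) had the furthest differences and lay on the same side. Cdkn2a, the cell cycle inhibitor locus repressed by BMI1, read 6.10 and 5.99, a difference of 0.11. Both values lie at the floor of 6, so little can be read from them.

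Repair and stromal genes were higher in part on Bmi1_KO. Ccn2, a matricellular YAP target, read 9.28 on Bmi1_KO, 7.37 on Mel18_KO, 8.15 on DKO and 7.90 on WT, and was highest on Bmi1_KO. With Timp1 (1.28) and Edn1 (1.16) it led 8 higher and 0 lower genes of 28 on the repair list, at a median of 0.12. Id2, an inhibitor of basic helix-loop-helix factors, read 10.17, 8.40, 10.79 and 8.85 on Bmi1_KO, Mel18_KO, DKO and WT. Fibroblast genes were higher in 6 of 21 cases and lower in 0, led by the proteoglycan Dcn (2.09), Vim (1.94) and fibronectin, Fn1 (1.63), but the collagens Col1a1 (0.21) and Col3a1 (0.02) were not. The median of the 21 genes was 0.14. The summed intensity of the 31 measured fibroblast genes was 1.87-fold higher, a sum weighted to bright members. Among these was Vim, at 11.26 on Bmi1_KO and 9.32 on Mel18_KO, which leukocytes express too.

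Transcripts of further cell types also differed. Plasma cell genes were lower on Bmi1_KO than on Mel18_KO. Ighm read 6.20 on Bmi1_KO, 7.84 on Mel18_KO, 7.35 on DKO and 6.19 on WT, and Igha read 6.59, 7.91, 7.01 and 6.39. The antibody joining chain Jchain read 5.90, 7.08, 9.15 and 6.24. In each of these genes WT lay nearer to Bmi1_KO than to Mel18_KO. The other Ighm probe sets differed by -0.26 and -2.26. Of 14 B and plasma cell genes 4 were lower and 1 higher, and the 25 measured genes summed to 0.906-fold of the Mel18_KO level. T and NK cell genes had 3 higher of 20, among them Ccl5 (1.58) and Il7r, which lay under background on Mel18_KO and was at least 1.87-fold higher. Of these 20 genes 8 read under 6 on Mel18_KO and passed through Bmi1_KO alone, and 2 read under 6 on Bmi1_KO. Their median was 0.18, and 0.14 over the 33 measured. Some keratins of squamous epithelium, as at the anal margin, were higher: Krt5 read 8.05 on Bmi1_KO, 6.36 on Mel18_KO, 5.82 on DKO and 8.76 on WT, and Krt17 read 7.56, 6.01, 6.21 and 7.89. They made up part of 5 genes at least 1.5-fold higher, with 0 lower, of 15. Counting any difference, 8 of the 15 were higher and 7 lower, and the 30 measured squamous genes summed to 0.931-fold of the Mel18_KO level. The list's median of 0.18 ran from -0.21 to 0.23 over the settings tried. The seminal vesicle gene Svs2 read 6.82 on Bmi1_KO, 4.32 on Mel18_KO, 4.50 on DKO and 12.02 on WT, and Svs5 read 6.18, 3.89, 4.48 and 11.59, so both were above background on Bmi1_KO and WT alone. These genes are not made by the colon, and their part in other differences was not tested. The Y-linked genes Eif2s3y (8.90 and 8.46), Kdm5d (8.01 and 8.11) and Uty (8.99 and 8.95) were present on both arrays and Xist was near background (3.86 and 3.87).

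Stress and metabolic lists had few genes at 1.5-fold, though some leaned lower on Bmi1_KO. Bile acid and xenobiotic genes had 3 lower and 1 higher of 18, at a median of -0.28. Fatty acid synthesis genes had 1 lower and 0 higher of 22, at a median of -0.20. The list of heat shock and immediate-early genes, with 29 analysed, had 5 higher and 2 lower members at 1.5-fold and a median of -0.02. The higher ones included the immediate-early genes Dusp1 (1.53), Ier3 (0.98), Egr1 (0.92) and Nr4a1 (0.90), and the lower ones were the heat shock genes Hspa1a (-1.02) and Hsph1 (-0.68). Hspa1a read 7.57 on Bmi1_KO, 8.58 on Mel18_KO, 8.69 on DKO and 9.89 on WT. Among hypoxia and glycolysis genes, the glucose transporter Slc2a3 was higher (1.33) and Adm (-0.95), Higd1a (-0.72) and P4ha1 (-0.65) were lower. The cystine transporter subunit Slc7a11 (1.13) was higher and the metalloreductase Steap4 lower (-1.10). Ribosomal protein, respiratory chain, unfolded protein response, p53 target, histone and PRC2 lists had 0 genes at 1.5-fold, as did 21 of the 61 lists in all. A median of at least 1.5-fold higher was seen in 5 lists and of at least 1.5-fold lower in 0. The 5 were neutrophils, mononuclear phagocytes, matrix remodelling, male accessory gland and erythroid cells. The male accessory gland median rests on 3 genes and the erythroid median (0.90) on 2.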

How the data were processed

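Gene expression was measured on Affymetrix Mouse Gene 1.0 ST arrays from 200 ng of RNA, 1 array per genotype. The authors deposited linear intensities per probe set, computed with RMA in Affymetrix Expression Console per the submitters' processing notes; versions are not given there. RMA normalizes the arrays to a common distribution, which removes shifts shared by most genes. Log2 was taken of the 35556 values per array, whose median intensity was 72.91 on Bmi1_KO and 67.04 on Mel18_KO. With 1 array each, the number of arrays sets the precision.

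Probe sets with 1 gene symbol in the platform annotation (21797) were kept, and the 1613 with several symbols and 12146 not listed with a gene were unnamed. A gene was represented by its brightest set over the 2 arrays (999 genes had more than 1). Of 661 genes with over 1 set above 6, 7 were called 2-fold, and in all 7 every other set lay on the same side. Differences and counts were made in Python 3.11.15 with pandas 2.3.3 and numpy 2.4.6, and the procedures were tested on simulated data. Cyclic loess used limma 3.58.1 in R 4.3.3. Promoter windows are from RefSeq (GRCm38.p6), matched by symbol for 9608 of the 12008 genes.

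Named were Bmi1 and Pcgf2, the 15 highest and 15 lowest genes past 2-fold, up to 6 members per list with the largest differences, a few fixed genes, and neighbours of the deleted genes at least 1.5-fold apart. The ranking skipped small RNAs, unnamed models, chemosensory receptors and segments of antigen receptors (1 higher and 4 lower genes past 2-fold). The comparison, lists and members were chosen with earlier results of these data known, so list counts describe and support nothing independently. List members named beyond 6, the background genes, and the NF-kB motif were chosen after the values were seen. Genome coordinates of the probe sets were not used here.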

Additional observations from a re-analysis of the deposited data

How the results depend on the processing

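With 1 array a side, chance and genotype cannot be told apart, and dim genes carry the least signal over background. No paired analysis was possible because each genotype has 1 array. The 188 higher and 28 lower genes became 104 and 16 with a floor of 8, which tests fewer genes, and 136 and 14 with 32 added before log2, which shrinks dim differences. They were 380 and 153 at 1.5-fold and 89 and 4 at 3-fold. Other floors, median centring, cyclic loess, the mean of probe sets and every probe set gave 168 to 202 higher and 25 to 32 lower genes. Genes higher made up 86.2% to 90.7% of calls over the scalings and floors. The 188 and 25 of these calls were shared after median centring and 182 and 25 after cyclic loess. List medians ran from 1.82 to 2.56 for neutrophils, 0.54 to 0.99 for mononuclear phagocytes, 0.56 to 1.99 for matrix remodelling, -0.21 to 0.23 for squamous epithelium, -0.28 to -0.20 for type I antiviral genes, -0.35 to -0.13 for cytochromes P450 and -0.34 to -0.06 for B and plasma cells. The male accessory gland list, with a median of 2.29 over 3 genes, reversed to -0.60 with the floor of 8 and with the floor on the mean of the 2 arrays, since Spink1 alone was left.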
